A study of Homo sapiens with 8 samples.

Results

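Homeobox genes are the genes whose official name in the deposited table contains the word homeobox, without ZEB1 and ZEB2 and without antisense and divergent transcripts. By this rule 78 of the 13771 genes of the table were members, of 80 genes that carry the word. They comprised 9 genes of the HOXA cluster, 4 of HOXB, 5 of HOXC, 16 genes of the TALE class, 11 NK-like and other ANTP genes, 6 paired-like genes, 6 of the zinc finger and zipper class, 5 POU, 4 sine oculis, 4 LIM, 3 CUT and 2 HNF genes, and 3 that were not classed. No HOXD gene was among the members, so the HOXD cluster, which the paper's introduction describes as repressed by HOTAIR, was not tested here. The name also takes in genes without a working homeodomain of their own, such as PBXIP1 (a protein that binds PBX factors), POU2AF1 (a coactivator of POU factors), the pseudogene MEIS3P1 and TPRXL.

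Total RNA was sequenced from 2 human breast epithelial cell lines, MCF10A, labelled as normal, and DCIS.COM, a line of the same lineage labelled as ductal carcinoma in situ. Each line had been stably transduced with the lentiviral vector pCDH-HOTAIR or with pCDH-empty and selected with puromycin, giving the groups MCF10A pCDH-empty, MCF10A pCDH-HOTAIR, DCIS.COM pCDH-empty and DCIS.COM pCDH-HOTAIR, with 2 libraries in each. HOTAIR was thus supplied from a vector, and the DNA of the HOXC locus itself was not altered by design. MCF10A cells were kept with epidermal growth factor, hydrocortisone, insulin and cholera toxin, which the labels do not list for DCIS.COM, so the effects of the line and of its medium cannot be told apart. Nothing in the labels says that the libraries of a group came from separate cultures, and p-values therefore measure only the spread between these libraries.

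Homeobox genes encode transcription factors that hold a homeodomain, a fold of helices that binds DNA at short sites around the letters TAAT. HOX genes sit in clusters in which the order of the genes follows the order in which they are used along the body axis, and Polycomb and trithorax complexes hold them off or on. TALE proteins (PBX, MEIS, PKNOX) bind DNA together with HOX proteins and sharpen the choice of site, whereas the other classes act in organ and cell type formation. HOTAIR is a long noncoding RNA transcribed from within the HOXC cluster, on the strand opposite to the HOXC genes.

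Promoter sequences are shown for genes of the HOXA cluster with lower levels in DCIS.COM (HOXA2 and HOXA4), for cluster neighbours that were not called lower with either vector (HOXA7 and HOXA9), and for genes without a read in MCF10A (MSX2, ISL1 and ISL2). Each run is the 250 bases before the first start site listed for the gene in RefSeq (GRCh38.p14), written 5′ to 3′ on the gene's strand, with capitals marking TAAT, the homeodomain core, and TGATTNAT, a site shared by PBX and HOX proteins, on either strand.
HOXA2 (chr7:27102684-27102933, minus strand): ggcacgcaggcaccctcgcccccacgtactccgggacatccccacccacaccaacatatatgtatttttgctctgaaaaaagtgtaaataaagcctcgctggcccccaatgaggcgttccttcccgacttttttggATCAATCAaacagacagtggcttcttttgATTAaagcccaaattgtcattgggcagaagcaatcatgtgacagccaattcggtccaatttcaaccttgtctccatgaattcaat
HOXA4 (chr7:27130758-27131007, minus strand): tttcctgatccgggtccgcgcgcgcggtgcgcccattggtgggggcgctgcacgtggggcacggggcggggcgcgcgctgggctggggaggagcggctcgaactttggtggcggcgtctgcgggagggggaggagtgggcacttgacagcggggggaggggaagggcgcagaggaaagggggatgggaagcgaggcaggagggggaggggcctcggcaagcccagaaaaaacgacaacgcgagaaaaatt
HOXA7 (chr7:27156676-27156925, minus strand): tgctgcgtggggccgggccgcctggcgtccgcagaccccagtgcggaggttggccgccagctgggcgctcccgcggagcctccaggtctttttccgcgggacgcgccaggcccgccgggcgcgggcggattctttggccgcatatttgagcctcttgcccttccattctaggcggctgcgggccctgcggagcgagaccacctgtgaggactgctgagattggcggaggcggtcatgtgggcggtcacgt
HOXA9 (chr7:27165538-27165787, minus strand): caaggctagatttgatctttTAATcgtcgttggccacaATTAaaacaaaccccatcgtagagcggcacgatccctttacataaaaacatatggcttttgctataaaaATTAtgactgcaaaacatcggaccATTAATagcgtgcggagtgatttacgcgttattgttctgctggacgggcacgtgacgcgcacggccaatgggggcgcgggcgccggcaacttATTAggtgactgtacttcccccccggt
MSX2 (chr5:174724332-174724581, plus strand): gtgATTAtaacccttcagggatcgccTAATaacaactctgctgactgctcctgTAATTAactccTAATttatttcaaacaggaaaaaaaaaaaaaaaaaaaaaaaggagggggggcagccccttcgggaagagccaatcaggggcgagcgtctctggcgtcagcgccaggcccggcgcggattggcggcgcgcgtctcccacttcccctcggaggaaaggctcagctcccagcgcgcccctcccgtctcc
ISL1 (chr5:51383198-51383447, plus strand): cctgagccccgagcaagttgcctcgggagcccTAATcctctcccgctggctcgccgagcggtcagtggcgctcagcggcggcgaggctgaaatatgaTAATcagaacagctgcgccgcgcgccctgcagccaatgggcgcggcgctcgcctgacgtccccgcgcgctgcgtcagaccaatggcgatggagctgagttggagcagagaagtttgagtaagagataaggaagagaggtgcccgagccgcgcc
ISL2 (chr15:76336523-76336772, plus strand): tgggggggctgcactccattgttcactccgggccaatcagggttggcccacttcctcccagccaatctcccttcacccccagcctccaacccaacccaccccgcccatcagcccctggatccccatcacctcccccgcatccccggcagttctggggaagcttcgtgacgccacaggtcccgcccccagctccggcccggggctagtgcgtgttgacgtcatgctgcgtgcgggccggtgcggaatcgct

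Of the 78 homeobox genes, 45 had a promoter in that reference. TAAT stood on either strand in 19 of these 45 promoters (42.2%), in 33.4% of the 10679 promoters of genes in the table and in 48.2% of all 27305 promoters. Within the windows shown, TAAT occurred 6 times before HOXA9, 5 times before MSX2, 2 times before ISL1 and 1 time before HOXA2, and not before HOXA4, HOXA7 or ISL2. The PBX and HOX site TGATTNAT was in 2 of the 45 promoters (4.44%), that of HOXA2 among them, against 1.25% of the promoters of the table. TAAT was in 6 of 12 promoters of homeobox genes higher in DCIS.COM with both vectors and in 5 of 14 promoters of those lower. These matches of letters are a description and were not tested for binding.

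Libraries held 19306864 to 34884841 reads, with the MCF10A pCDH-HOTAIR libraries the least deep. HOTAIR had 45 and 40 reads in MCF10A pCDH-empty, 4614 and 4827 in MCF10A pCDH-HOTAIR, 119 and 140 in DCIS.COM pCDH-empty, and 7166 and 6385 in DCIS.COM pCDH-HOTAIR, the order the labels give. DCIS.COM pCDH-empty 1 stood apart from the other libraries, with 18.9% of its reads on the signal recognition particle RNA genes RN7SL1 and RN7SL2. All 8 epithelial markers looked for were expressed, at a summed CPM (reads scaled to the library total) of 10534 to 11805 in MCF10A and 6252 to 7837 in DCIS.COM. The basal keratins KRT5, KRT14 and KRT17 were lower in DCIS.COM with both vectors, whereas TP63, also a basal marker, was higher, as were luminal KRT8 and KRT18 and EPCAM. CDH1 was called lower with the empty vector (log2 change -0.59) and had a log2 change of -0.53 with HOTAIR. Of 8 markers of other cell types, CD68, ACTA2 and PECAM1 had values, with a summed CPM of 36.2 to 40.2 in MCF10A and of 17.97 to 21.4 in DCIS.COM, and PTPRC, CD3E, CDH5, COL3A1 and PDGFRB were not analysed here. The part of these shifts in the homeobox results was not tested, and in bulk RNA fewer cells with a transcript cannot be told apart from less transcript per cell.

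Homeobox genes were transcripts of low to moderate abundance. The median over the 78 genes of the mean log2 CPM was 1.91, against 4.34 over all genes. Per kilobase of gene length, the highest levels in MCF10A pCDH-empty were those of IRX3 (32.0 CPM per kb), HOXA5 (23.7), MEIS3P1 (23.5), IRX5 (16.7) and IRX2 (16.6). In DCIS.COM pCDH-empty the highest was IRX4 with 20.5 CPM per kb, followed by MEIS3P1 (12.9), ADNP2 (12.4), IRX5 (9.89) and IRX2 (9.51). Iroquois genes, which pattern the nervous system, heart and skin, thus held 3 of the 5 leading places in the empty-vector libraries of each line, and HOXA5 was among these 5 in MCF10A. With the levels of both vectors averaged, PBXIP1 and not IRX2 was among the leading 5 in DCIS.COM. Reads of the pseudogene MEIS3P1 may be shared with its parent gene MEIS3.

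The comparison of DCIS.COM with MCF10A asks which homeobox genes differ between a normal and an in situ carcinoma line. It was made once with each vector, on libraries that do not overlap. Both used 1 estimate of spread per gene, from all 8 libraries, so calls shared by both vectors do not come from separate tests. With the empty vector, 26 of the 78 genes were higher in DCIS.COM and 25 lower at an adjusted p under 0.05 (limma, Benjamini-Hochberg over all genes) and a fold change of at least 1.5. Together they were 65.4% of the homeobox genes, against 46.3% of all genes called, of which 22.5% were higher and 23.8% lower. With the HOTAIR vector, 25 were higher and 26 lower, again 65.4%, against 43.7% of all genes, with 22% higher and 21.7% lower. Calls in the same direction with both vectors were made for 46 genes, 22 higher and 24 lower, which is 90.2% of the calls with each vector, and no gene was called in opposite directions. Over all genes, the 5283 shared calls were 82.9% of those with the empty vector and 87.8% of those with HOTAIR.

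These shares are affected by which genes the table holds, since each gene of the table passed 0.5 CPM in 2 or more libraries. Of the homeobox genes, 8 reached this level in 2 libraries of MCF10A only and 12 in DCIS.COM only, so that 20 entered through a single line. All 20 were called in that direction with both vectors, which the filter favours. Over all genes the same held for 3.54% and 3.67%, against 10.3% and 15.4% of the homeobox genes. Among genes with a mean CPM of at least 2 over the 8 libraries, 28 of 48 homeobox genes were called with each vector (58.3%), against 44.1% and 41.5% of the 12222 genes kept. The scatter of the changes between the lines, with the empty vector against the HOTAIR vector, shows the points along the diagonal.

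**Figure D1:**
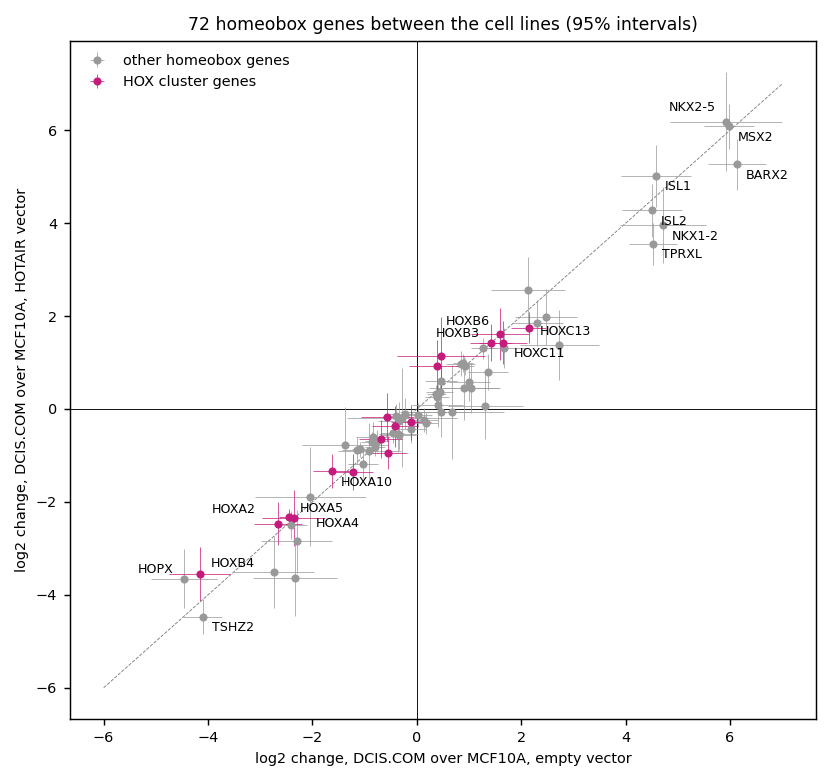
Log2 change of 72 homeobox genes between DCIS.COM and MCF10A, with the empty vector (horizontal axis) and with the HOTAIR vector (vertical axis). Points are fitted changes from 2 libraries a group, bars are 95% intervals, the dashed line marks equal change, and HOX cluster genes are in magenta. NKX2-5, MSX2 and BARX2 lie at the upper right and HOPX, HOXB4 and TSHZ2 at the lower left.

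In the HOXA cluster (chromosome 7, 27139973 to 27224851 in GRCh37 from HOXA2 to HOXA11), 6 of 9 genes were lower in DCIS.COM with both vectors. None of the 9 was higher with the empty vector. The share called lower was 66.7% with each vector, against 23.8% (empty vector) and 21.7% (HOTAIR) of all genes. Of the 6, HOXA2 and HOXA4 passed 0.5 CPM in MCF10A alone, which favours a lower call, so these counts are a description. HOXA2, HOXA3, HOXA4 and HOXA5 all fell, and of HOXA7, HOXA9, HOXA10 and HOXA11 only HOXA10 did. HOXA5 (Entrez gene 3202), which acts in lung and mammary development, had log2 CPM values of 5.36 and 5.34 in MCF10A pCDH-empty, 5.46 and 5.41 in MCF10A pCDH-HOTAIR, 2.87 and 2.91 in DCIS.COM pCDH-empty, and 3.13 and 3.07 in DCIS.COM pCDH-HOTAIR. The lines did not overlap, and HOXA5 was 5.50-fold lower in DCIS.COM with the empty vector (log2 change -2.46, standard error (SE) 0.080, adjusted p = 8.51e-08 from limma) and 5.04-fold lower with HOTAIR (log2 change -2.33, SE 0.080).

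HOXA2, a gene of the second pharyngeal arch, had 87, 70, 63 and 51 reads in the MCF10A libraries and 12, 9, 17 and 15 in the DCIS.COM libraries, which were 6.35-fold lower with the empty vector and 5.53-fold lower with HOTAIR. HOXA4 had 68, 60, 64 and 45 reads against 14, 8, 18 and 15, and its log2 changes were -2.36 (SE 0.26) and -2.35 (SE 0.26). Both genes were at low counts in DCIS.COM, and the highest DCIS.COM library of each stayed below the lowest MCF10A library.

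HOXA3, needed for thymus and parathyroid formation, changed less, with log2 changes of -1.23 and -1.36 (SE 0.17 for both). HOXA10, which acts in the uterus, had log2 CPM values of 4.52 and 4.40 in MCF10A pCDH-empty against 2.58 and 3.09 in DCIS.COM pCDH-empty, and 4.37 and 4.36 against 2.99 and 3.07 with HOTAIR. It was 3.09-fold and 2.53-fold lower in DCIS.COM with the empty and the HOTAIR vector.

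HOXA9 and HOXA11 did not pass the test in either comparison with all libraries. HOXA9 had log2 CPM values of 3.27 and 3.22 in MCF10A pCDH-empty and of 2.28 and 3.08 in DCIS.COM pCDH-empty, and the low value was that of the library that stood apart, DCIS.COM pCDH-empty 1. Its log2 change was -0.57 (95% interval -1.08 to -0.051, adjusted p = 0.0512 from limma), and it was called with limma-voom on recovered reads (log2 change -0.59). HOXA11 had log2 changes of -0.43 (95% interval -0.87 to 0.016) with the empty vector and -0.37 (95% interval -0.81 to 0.071) with HOTAIR. Without DCIS.COM pCDH-empty 2, both genes were called lower with the empty vector (-0.96 for HOXA9 and -0.65 for HOXA11), and without DCIS.COM pCDH-empty 1 their changes were -0.17 and -0.20. HOXA7 was called higher with HOTAIR (log2 change 0.93, SE 0.24, adjusted p = 0.00911 from limma), and not with the empty vector (log2 change 0.39). That call was lost with a pseudocount of 1 CPM (log2 change 0.49) and without DCIS.COM pCDH-HOTAIR 2 (log2 change 0.86). In reads, HOXA7 had 39 and 28 in MCF10A pCDH-empty, 17 and 11 in MCF10A pCDH-HOTAIR and 40 to 49 in DCIS.COM. Of the exon bases of HOXA7, 62.5% lie on exons of the antisense RNA HOXA-AS3, and the sources used here do not say whether counting used strand, so reads of the 2 genes may not be told apart.

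The HOXB cluster (chromosome 17, 46618256 to 46682354 in GRCh37 over the 4 genes) went both ways. HOXB4, known for the expansion of blood stem cells, had 38 and 32 reads in MCF10A pCDH-empty, 23 and 21 in MCF10A pCDH-HOTAIR, 0 and 0 in DCIS.COM pCDH-empty, and 1 and 1 in DCIS.COM pCDH-HOTAIR. Taking 3 reads per library as the limit that a count of 0 allows, HOXB4 was at least 11.4-fold lower in DCIS.COM with the empty vector. With HOTAIR the ratio of MCF10A to DCIS.COM was 38.6 (95% counting interval 10.1 to 329). HOXB3, its neighbour in the cluster, rose, with 32, 27, 20 and 26 reads in MCF10A and 81, 80, 111 and 113 in DCIS.COM, and log2 changes of 1.41 and 1.43 (SE 0.17 for both). HOXB6 had 7 to 9 reads in MCF10A and 28 to 49 in DCIS.COM and rose by 1.60 and 1.62 on the log2 scale. HOXB3 and HOXB6 share 433 exon bases on the same strand, 16.6% of those of HOXB6, so their counts may not be independent. HOXB2 was called with HOTAIR alone (log2 change 1.13, adjusted p = 0.0254 from limma), where the MCF10A pCDH-HOTAIR libraries had 27 and 13 reads. The call was lost on leaving out the library with 13 reads (log2 change 0.62) or either DCIS.COM pCDH-HOTAIR library (1.01 and 1.26).

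In the HOXC cluster (chromosome 12, 54332615 to 54424607 in GRCh37 over the 5 genes), the genes at the end where HOTAIR lies, HOXC13 and HOXC11, were higher in DCIS.COM with both vectors, and those farther along, HOXC9, HOXC8 and HOXC6, were lower or not called. HOXC13, a gene of hair and nail formation, had log2 CPM values of 2.27 and 2.22 in MCF10A pCDH-empty, 2.54 and 2.39 in MCF10A pCDH-HOTAIR, 4.59 and 4.17 in DCIS.COM pCDH-empty, and 4.25 and 4.18 in DCIS.COM pCDH-HOTAIR. The lines did not overlap, and the rise was 4.40-fold with the empty vector (log2 change 2.14, SE 0.15, adjusted p = 4.74e-06 from limma) and 3.37-fold with HOTAIR. HOXC11 (Entrez gene 3227) had 1.19 and 1.24, 1.13 and 1.47 in MCF10A and 3.12 and 2.59, 2.75 and 2.71 in DCIS.COM, a rise of 3.12-fold (log2 change 1.64, SE 0.20) and of 2.69-fold (log2 change 1.43). HOTAIR (54356092 to 54368740, minus strand) and HOXC11 (54366910 to 54371427, plus strand) overlap in span but share 0 exon bases in GENCODE 44 on GRCh37. HOXC11 had 69 and 61 reads in MCF10A pCDH-empty and 41 and 54 in the shallower MCF10A pCDH-HOTAIR libraries, where HOTAIR had 4614 and 4827.

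HOXC6 (Entrez gene 3223), which is active in the developing mammary gland, had log2 CPM values of 1.63 and 1.62 in MCF10A pCDH-empty, 1.92 and 1.97 in MCF10A pCDH-HOTAIR, 1.20 and 0.95 in DCIS.COM pCDH-empty, and 1.07 and 0.94 in DCIS.COM pCDH-HOTAIR. Every DCIS.COM library was below every MCF10A library. With HOTAIR, HOXC6 was called 1.92-fold lower (log2 change -0.94, SE 0.15). With the empty vector its log2 change of -0.55 was under the fold threshold, and without DCIS.COM pCDH-empty 1 it was -0.67 and was called. HOXC8 was lower by 0.69 and 0.64 on the log2 scale, close to the fold threshold, and its calls were lost with pseudocounts of 0.5 and 1 CPM, with which its changes were -0.54 and -0.43 (empty vector) and -0.49 and -0.39 (HOTAIR), and also without MCF10A pCDH-empty 1 (-0.61), MCF10A pCDH-HOTAIR 2 (-0.54) or DCIS.COM pCDH-HOTAIR 1 (-0.61). HOXC9 did not pass the test with either vector, with log2 changes of -0.11 (95% interval -0.49 to 0.28) and -0.29 (95% interval -0.68 to 0.096). In GRCh37, 14.0% of the exon bases of HOXC6 lie on exons of HOXC4, which is on the same strand and has no values here. The plot of HOX genes by cluster shows the fall of HOXA2 to HOXA5 and the rise of HOXC11 and HOXC13.

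**Figure D2:**
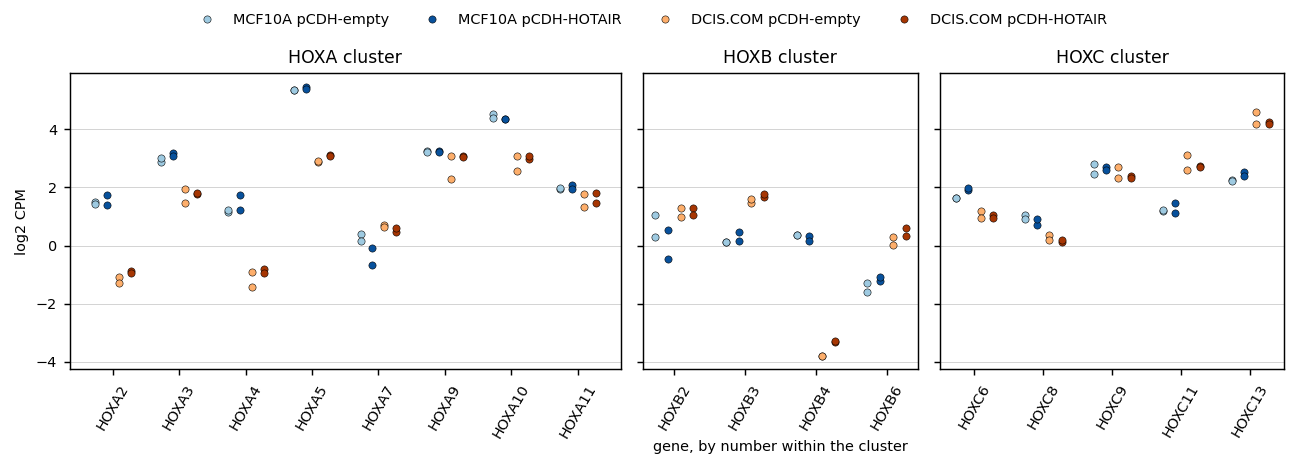
Log2 CPM of 17 HOX cluster genes in each of the 8 libraries, ordered by gene number within the HOXA, HOXB and HOXC clusters. Each point is a library and the colours give the cell line and vector. HOXA2 to HOXA5 and HOXB4 lie lower in DCIS.COM (orange and brown) than in MCF10A (blue), HOXC11 and HOXC13 higher, and the shades within a line lie close together.

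Of 26 noncoding RNAs of the HOX clusters looked for, 4 had values. HOTAIRM1 had 609, 382, 393 and 400 reads in MCF10A and 65, 99, 165 and 123 in DCIS.COM, and its log2 changes were -2.54 and -2.27. HOXA-AS2, whose exons overlap those of HOXA3 and HOXA4, had 125 to 162 reads in MCF10A and 19 to 33 in DCIS.COM, with log2 changes of -2.55 and -2.68. Both fell as did HOXA3 and HOXA4, and the overlap with HOXA4 covers 14.7% of its exon bases. HOXA-AS3 had 5 to 13 reads in MCF10A and 40 to 74 in DCIS.COM and rose by 2.44 and 2.08 on the log2 scale. Endogenous HOTAIR, seen in the empty-vector libraries, was 2.99-fold higher in DCIS.COM (log2 change 1.58, SE 0.12, adjusted p = 1.08e-05 from limma).

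Of the 11 NK-like and other ANTP genes, 7 were higher in DCIS.COM and 3 lower with both vectors. Of the 7, 6 passed 0.5 CPM in DCIS.COM alone, and of the 3, 2 did so in MCF10A alone. With the empty vector 46.3% of all genes were called. A gene that enters through the line where it is high is favoured to differ, so these counts are a description. BARX2, MSX2 and NKX2-5 had the largest fitted rises of the homeobox genes with each vector, but fitted changes of genes at or near 0 reads depend on the prior, and no order is drawn from them. MSX2, which acts where epithelium meets mesenchyme, had 0 reads in all 4 MCF10A libraries and 133, 120, 171 and 160 in DCIS.COM, so it was at least 42.6-fold higher with the empty vector and at least 31.4-fold higher with HOTAIR. BARX2, a regulator of muscle and epithelial differentiation, had 0 and 0 reads in MCF10A pCDH-empty, 2 and 1 in MCF10A pCDH-HOTAIR, and 153, 130, 206 and 178 in DCIS.COM, at least 47.6-fold higher with the empty vector. NKX2-5, known as a heart factor, had 5, 4, 3 and 0 reads in MCF10A and 488, 312, 323 and 314 in DCIS.COM, and its log2 change with the empty vector was 5.93 (SE 0.47). With HOTAIR the ratio of DCIS.COM to MCF10A was 121 (95% counting interval 41.2 to 588). NKX1-2 had 0 reads in the MCF10A libraries and 69, 38, 28 and 46 in DCIS.COM, at least 17.8-fold and 7.08-fold higher.

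DLX1, a factor of forebrain interneurons, rose 4.96-fold and 3.61-fold, and MNX1, a motor neuron and pancreas factor, rose 4.38-fold and 5.86-fold. DLX3 and HLX were among the 3 genes of the class that fell. DLX3, which drives differentiation of the epidermis, had 23, 15, 24 and 21 reads in MCF10A and 2, 2, 0 and 2 in DCIS.COM, and with HOTAIR the ratio of MCF10A to DCIS.COM was 39.5 (95% counting interval 10.3 to 336). HLX had 17 to 38 reads in MCF10A and 2 to 6 in DCIS.COM.

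Among LIM genes, ISL1, a factor of motor neurons and heart progenitors, had 0 reads in the 4 MCF10A libraries and 39, 56, 81 and 75 in DCIS.COM, at least 16.2-fold higher with the empty vector and at least 14.8-fold with HOTAIR. Its paralogue ISL2 likewise had 0 reads in MCF10A and 45, 43, 46 and 45 in DCIS.COM, at least 14.8-fold and 8.64-fold higher. LHX4, a pituitary factor, had 5 to 8 reads in MCF10A and 42 to 60 in DCIS.COM. Exons of ACBD6 on the opposite strand cover 30.7% of the exon bases of LHX4, so their reads may not be told apart. LMX1B was below the fold threshold with both vectors. HOPX, a small homeodomain protein that does not bind DNA, was the reverse case, with 44, 43, 14 and 19 reads in MCF10A and 0 in all 4 DCIS.COM libraries, at least 14.3-fold lower with the empty vector and at least 9.63-fold lower with HOTAIR. A count of 0 says that the transcript was not detected at this depth. The plot of genes at or near 0 in a line shows these levels in CPM.

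**Figure D3:**
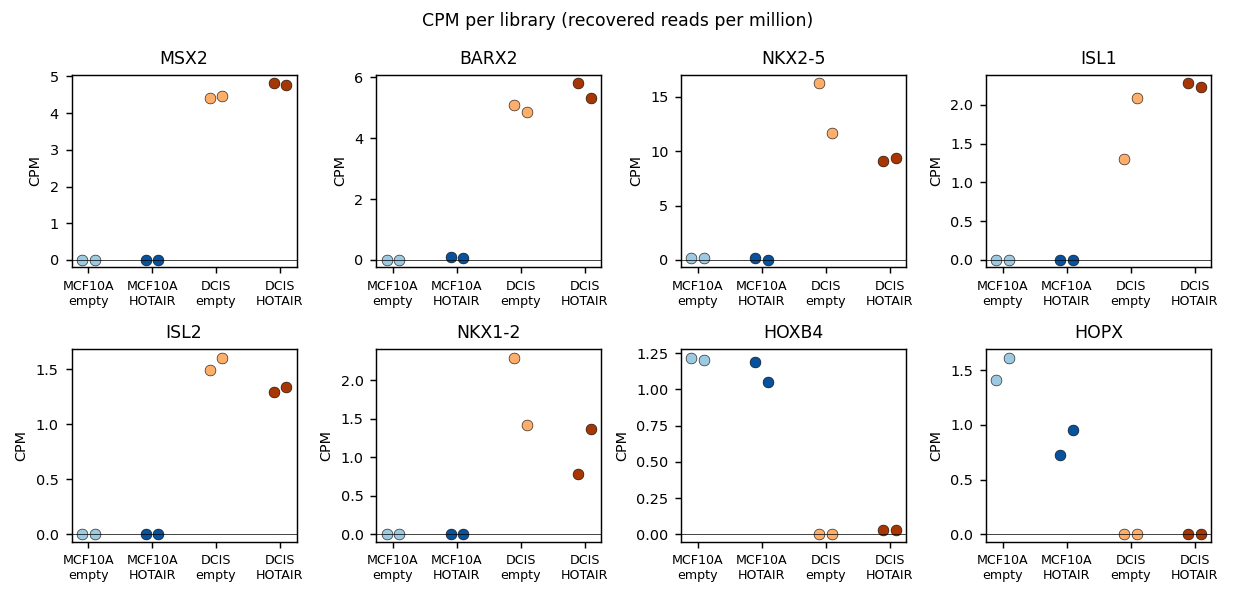
CPM of 8 homeobox genes, 1 panel a gene, in the libraries of MCF10A and DCIS.COM with the empty and the HOTAIR vector, on linear axes that start at 0. Each point is a library. MSX2, BARX2, NKX2-5, ISL1, ISL2 and NKX1-2 are at or near 0 in MCF10A, and HOXB4 and HOPX in DCIS.COM.

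Of the 16 TALE genes, 3 were higher (18.75%) and 6 lower (37.5%) in DCIS.COM with each vector. Over all genes, 22.5% were higher and 23.8% lower with the empty vector, and 22% and 21.7% with HOTAIR. Of the 6 lower genes, 1 (PBX4) passed 0.5 CPM in MCF10A alone, and the counts of this small class are a description. Of the Iroquois genes, IRX3 and IRX5 on chromosome 16 both fell. IRX3 had log2 CPM values of 6.59, 6.52, 6.68 and 6.50 in MCF10A and of 3.96, 4.33, 4.01 and 4.17 in DCIS.COM, 5.32-fold and 5.65-fold lower, and IRX5 was 1.69-fold and 1.61-fold lower. On chromosome 5, IRX2 was 1.74-fold and 1.77-fold lower while IRX4 rose 1.85-fold and 1.99-fold. IRX4 had log2 CPM values of 4.89 to 5.07 in MCF10A and 5.85 to 6.01 in DCIS.COM. IRX1 was called higher with the empty vector only (log2 change 1.001), and with HOTAIR its log2 change was 0.58, just under the fold threshold.

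Of the PBX, MEIS and PKNOX cofactors of HOX proteins, MEIS2 rose 1.79-fold and 1.96-fold, whereas MEIS1, MEIS3 and PKNOX1 did not pass the threshold with either vector. PBX2 had log2 changes of -0.40 with the empty vector and of -0.14 with HOTAIR, both within the fold threshold. PBX3 was called with HOTAIR alone, at a log2 change of 0.60 against 0.46 with the empty vector. PBX4 fell, with 42, 38, 19 and 27 reads in MCF10A and 15, 4, 13 and 6 in DCIS.COM. TGIF1, a corepressor of TGF-beta signalling, was 2.12-fold and 1.82-fold lower, and its paralogue TGIF2 was within the fold threshold. PBXIP1 was 1.79-fold and 1.52-fold lower.

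The sine oculis genes, among them SIX2, SIX4 and SIX5, which act with EYA proteins in muscle, kidney and sense organs, split as well. SIX4 rose 2.41-fold and 2.47-fold. SIX2, a factor of kidney progenitors, had 42, 46, 31 and 37 reads in MCF10A and 3, 7, 3 and 3 in DCIS.COM, 6.69-fold and 11.3-fold lower, and SIX5 was within the fold threshold.

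Among the remaining classes, TSHZ2, a zinc finger homeobox gene, fell the most among genes with over 30 reads in every library, from log2 CPM values of 4.39 to 4.76 in MCF10A to 0.04 to 0.49 in DCIS.COM, 17.2-fold and 22.1-fold. Its paralogue TSHZ1 was within the fold threshold. ADNP2 rose 1.89-fold with both vectors, and CUX1, a widely expressed CUT factor, was 2.04-fold and 2.28-fold lower. SHOX2, a limb and heart factor, rose 3.17-fold and 2.49-fold. POU2F1, an octamer-binding factor found in most cells, rose 2.57-fold with the empty vector and 1.75-fold with HOTAIR. POU5F1, a pluripotency factor whose pseudogenes resemble it closely and could share its reads, was called with the empty vector (log2 change 1.31) and had a log2 change of 0.06 with HOTAIR. The pseudogene TPRXL had 2, 2, 4 and 4 reads in MCF10A and 89 to 109 in DCIS.COM. The chart of calls by class summarises these counts.

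**Figure D4:**
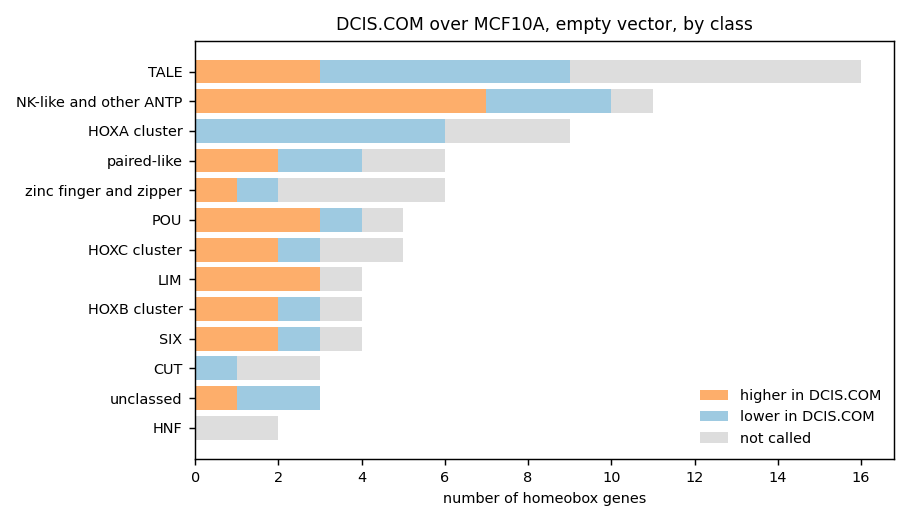
Number of homeobox genes of each class that were called higher (orange), lower (blue) or not called (grey) in DCIS.COM over MCF10A with the empty vector. The HOXA bar holds 6 lower genes and none higher, the LIM bar 3 higher and none lower, and the bar of NK-like and other ANTP genes 7 higher and 3 lower. The 3 LIM genes and 6 of these 7 passed 0.5 CPM in DCIS.COM alone. Of the lower genes, 2 of the 6 HOXA genes and 2 of the 3 NK-like and other ANTP genes did so in MCF10A alone. Over all genes, 46.3% were called with the empty vector.

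A list of genes of the Polycomb and trithorax complexes, which keep HOX clusters silent or active, all had values (41 of 41). The list also held KDM1A, RCOR1 and REST, which belong to neither complex. RCOR1 was among the genes called lower with each vector (log2 changes -1.10 and -1.16). With the empty vector 8 were higher in DCIS.COM and 6 lower, and with HOTAIR 6 were higher and 4 lower. EZH2, the methyltransferase of Polycomb complex PRC2, rose by 0.78 and 0.87 on the log2 scale, and CBX7, a reader of its mark, by 1.71 and 1.998. JARID2, a cofactor of the same complex, was lower by 0.89 and 0.90. Together the 14 calls with the empty vector are 34.1% of the list, below the 46.3% of all genes. With HOTAIR, 43.7% of all genes were called. Homeodomain genes whose names lack the word homeobox were also looked at, and 8 of those on the list had values. PITX1, PAX8 and ZHX3 were lower in DCIS.COM with both vectors, none was higher, and 5 of the 8 were not called with either vector. These 3 calls of 8 stand beside 46.3% of all genes called with the empty vector and 43.7% with HOTAIR, so no direction is drawn from them.

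The comparison of HOTAIR with the empty vector asks whether forced HOTAIR changed homeobox genes, those of its own cluster included. No homeobox gene was called in either line by limma, and none by limma-voom on recovered reads. The study, which used edgeR, reported more changed genes in each line than were called here. Its list includes a homeobox gene that is described below, so the absence of calls holds only for the tests used here. In MCF10A, 0.0218% of all genes were called, and 10 homeobox genes (12.8%) had an unadjusted p under 0.05, against 7.28% of all genes. In DCIS.COM, 0.0871% of all genes were called, and 9 homeobox genes (11.5%) had an unadjusted p under 0.05, against 17.5% of all genes. At 2 libraries a group the estimates were wide for many of them. The 95% interval lay inside a 1.5-fold change either way for 41 of the 78 genes in MCF10A and 36 in DCIS.COM, and for 9 of the 18 HOX genes in each line. For the others a change of 1.5-fold was not excluded by these data.

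Genes of the HOXC cluster, where HOTAIR is encoded, had log2 changes with HOTAIR of -0.19 to 0.32 in MCF10A and of -0.17 to -0.07 in DCIS.COM. For HOXC11, the nearest HOXC gene in the table, the log2 change was 0.08 (95% interval -0.38 to 0.54) in MCF10A and -0.13 (95% interval -0.59 to 0.33) in DCIS.COM. HOXC6 had 0.32 (95% interval -0.028 to 0.67) in MCF10A, where both HOTAIR libraries lay above both empty-vector libraries, and -0.07 (95% interval -0.42 to 0.28) in DCIS.COM. In the HOXA cluster HOXA7 had a log2 change of -0.67 in MCF10A (unadjusted p = 0.0239, adjusted p = 0.581 from limma), and HOXA5 one of 0.21 in DCIS.COM (unadjusted p = 0.0319, adjusted p = 0.264 from limma). HOXB genes had 95% intervals that included 0 in both lines.

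Among the homeobox genes with the smallest unadjusted p in MCF10A were TPRXL, BARX2, VAX2 and POU5F1. Of these, 3 rested on few reads. TPRXL had 2 and 2 reads with the empty vector and 4 and 4 with HOTAIR, BARX2 had 0 and 0 against 2 and 1, and VAX2, an eye patterning factor, had 7 and 4 against 9 and 12. POU5F1 had -0.09 and 0.07 against 0.79 and 1.05, a change of 0.93 (adjusted p = 0.527 from limma). Each of these differences was larger than the gap between the libraries of a group, which a choice of genes by small p favours. None passed the adjustment over all genes. Of the exon bases of VAX2, 56.3% lie on exons of ATP6V1B1 on the same strand, so their reads may not be told apart.

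In DCIS.COM those of HDX, POU2F1, PBXIP1 and TGIF1 were among the smallest unadjusted p. HDX had log2 CPM values of 1.54 and 1.68 with the empty vector and 2.10 and 2.15 with HOTAIR, a change of 0.52 (SE 0.13, adjusted p = 0.186 from limma). POU2F1 had 3.55 and 3.32 against 2.87 and 2.77, a change of -0.62 (SE 0.17, adjusted p = 0.215 from limma). PBXIP1 had 4.73 and 5.12 against 5.54 and 5.31, a change of 0.50 (SE 0.14, adjusted p = 0.222 from limma). NKX2-5 had 4.03 and 3.55 against 3.20 and 3.24, a change of -0.57 (95% interval -1.65 to 0.50). For all 4 genes the groups did not overlap, but the way they were chosen favours this. HDX, POU2F1 and PBXIP1 were named for a small p, and both NKX2-5 and POU2F1 were in the study's list of changed genes.

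These DCIS.COM values depended on the empty-vector libraries. With DCIS.COM pCDH-empty 2 left out, so that the library rich in RN7SL reads stood alone for the empty vector, HDX, CRX, HOXA9, DUXA, POU2F1 and PBXIP1 were called, among 1403 genes in all. With DCIS.COM pCDH-empty 1 left out, 0 homeobox genes were called, among 60 genes in all. DUXA had 71 and 23 reads in the DCIS.COM pCDH-empty libraries and 28 and 27 with HOTAIR, and CRX 297 and 146 against 223 and 179, so the first library was the high one in both. The plot of HOTAIR effects gives 72 genes with their intervals.

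**Figure D5:**
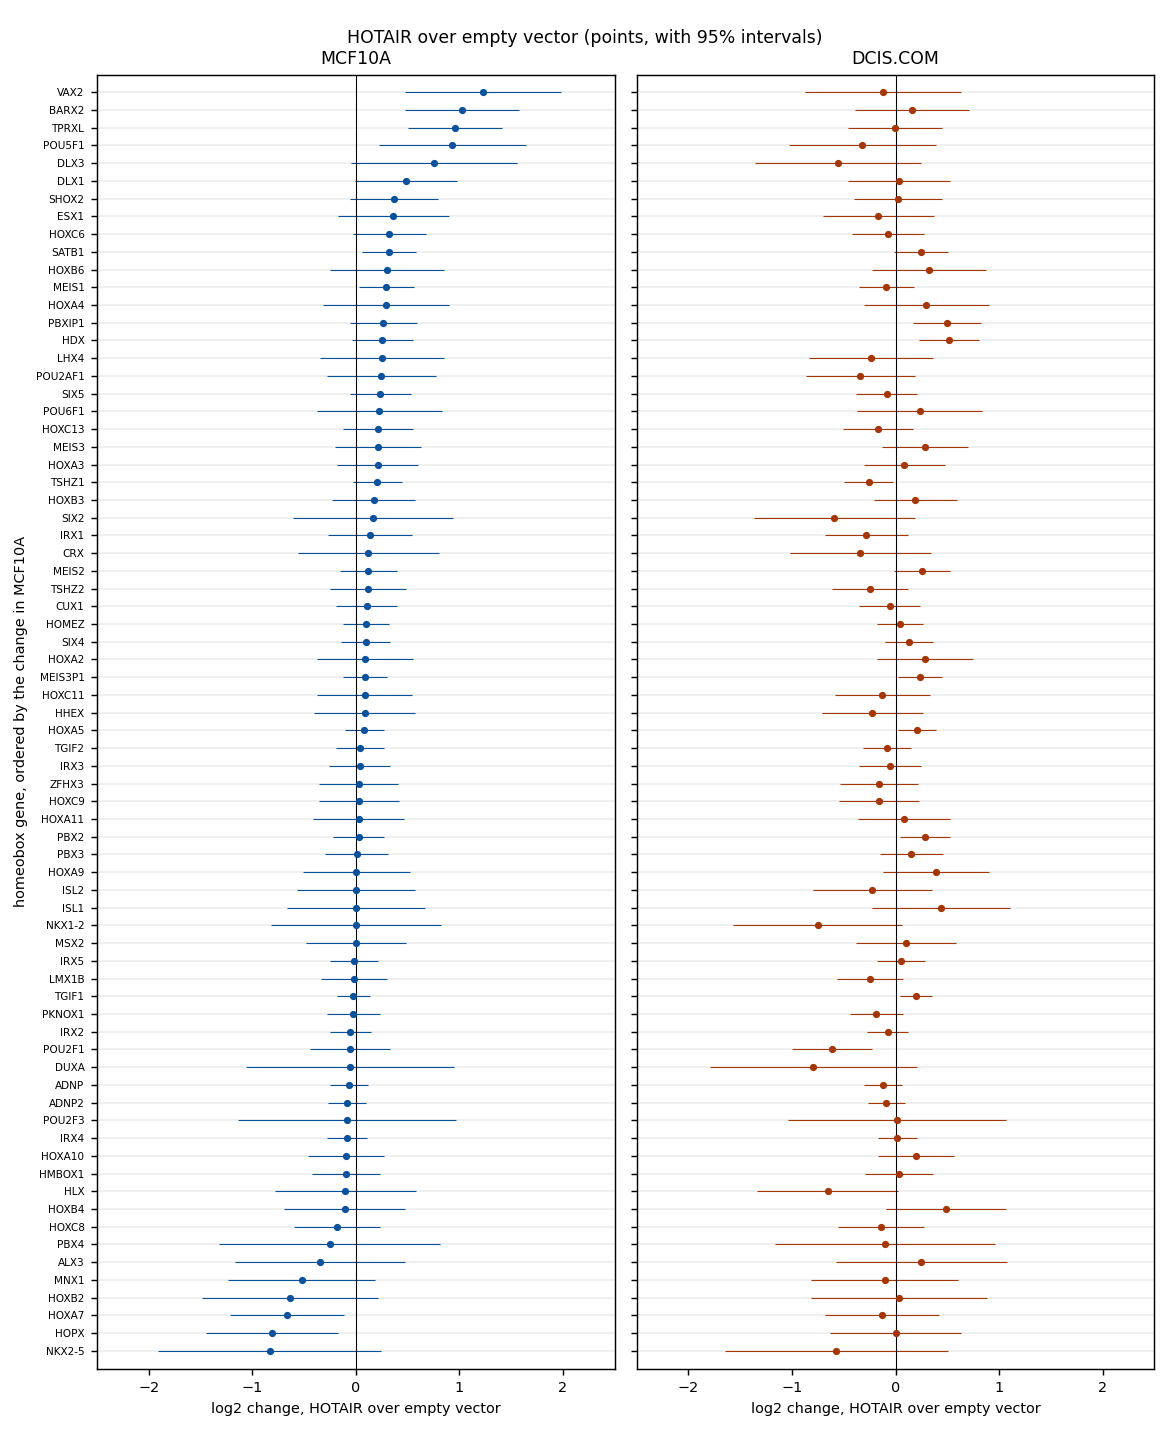
Log2 change of 72 homeobox genes with HOTAIR over the empty vector in MCF10A (left) and DCIS.COM (right), ordered by the change in MCF10A. Points are fitted changes from 2 libraries a group and bars are 95% intervals. Changes span -0.83 to 1.23 in MCF10A and -0.79 to 0.52 in DCIS.COM, most intervals include 0, and no gene passed the adjusted test.

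Whether the HOTAIR effect differed between the lines was tested as an interaction over all 8 libraries. No homeobox gene was called by limma or by limma-voom, against 0.0436% of all genes by limma, and 10 (12.8%) had an unadjusted p under 0.05, against 10.5% of all genes. Among the smallest values were those of TPRXL, TSHZ1 and VAX2. TSHZ1, a teashirt zinc finger factor, had log2 CPM values of 3.99 and 4.19 against 4.36 and 4.24 with HOTAIR in MCF10A, and 4.32 and 4.21 against 4.04 and 3.96 in DCIS.COM. Its difference of effects was -0.47 (DCIS.COM minus MCF10A, SE 0.15, adjusted p = 0.413 from limma). VAX2 had 55 and 39 reads against 39 and 68 in DCIS.COM, a difference of effects of -1.35 (adjusted p = 0.430 from limma). These reads may not be told apart from those of ATP6V1B1. Without DCIS.COM pCDH-empty 2, 11 homeobox genes passed the adjusted test of this difference, with TSHZ1, CUX1, HOXA9, HOXA10, HOXC13, DUXA, PBX2, POU5F1, PBXIP1 and IRX1 among them, of 4414 genes in all. Without DCIS.COM pCDH-empty 1, none did, among 89 genes in all.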

How the data were processed

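RNA-seq was analysed for 8 libraries in 4 groups of 2, grouped by the cell line and vector of the labels. Per the study's methods, the authors made ScriptSeq libraries, aligned the reads to hg19 (GRCh37) with Rsubread, used featureCounts on known genes for counting and edgeR for normalization. They deposited log2 CPM values of 13771 genes. Reads were recovered here from those values, which rise in equal steps from a prior of 0.0717 CPM (100% of 110168 values were whole within 0.05 reads). Depth was 19306864 to 34884841 reads, and intervals and limits from reads cover counting error only. A fold change is on the scale of log2 CPM with that prior and understates changes of genes with few reads.

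Changes were tested with limma 3.58.1 in R 4.3.3 on the deposited log2 CPM of all genes (4 group means, mean-variance trend, Benjamini-Hochberg over 13771 genes), since no counts were used directly. Calls needed an adjusted p below 0.05 together with a 1.5-fold change or more, and the difference between lines the former alone. Named genes were HOTAIR, every HOX gene, the 10 largest called changes in each direction between lines, the 5 smallest p with HOTAIR, the 5 highest levels per kb in each line, the leading 2 of each class, POU2F1, NKX2-5 and called or marker genes of the lists, and others were named after their values were seen. Of the 78 genes, 6 are counted but not reported here by name or drawn. Members, classes and lists were chosen with earlier results of these data known. Lengths and positions came from GENCODE release 44 on GRCh37, promoters from RefSeq. Alternatives were other pseudocounts, normalizations, filters, models and thresholds, the replicate number as a block, and each library left out in turn. The remaining steps used Python 3.11.15, numpy 2.4.6, pandas 2.3.3 and matplotlib 3.10.9.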

Additional observations from a re-analysis of the deposited data

Results flagged for a closer look

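HOTAIR itself, which lies among the HOXC genes, had a HOTAIR over empty-vector effect that differed between the lines by the interaction test. Its log2 change was 7.28 in MCF10A and 5.41 in DCIS.COM, a difference of -1.87 (SE 0.18, adjusted p = 0.0208 from limma). The mean log2 CPM with the HOTAIR vector was 7.91 in MCF10A and 7.61 in DCIS.COM, and with the empty vector 0.63 and 2.21. The call was lost without the variance trend, with the replicate block and with limma-voom (log2 difference -1.9). It was also lost without any single MCF10A library or DCIS.COM pCDH-HOTAIR library, where the difference ranged from -1.91 to -1.83, and was kept without either DCIS.COM pCDH-empty library.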

How the results depend on the processing

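With 2 libraries a group and few reads for many homeobox genes, small changes could not be seen. Counts of homeobox genes called between the lines (51 with each vector) moved to 28 with both vectors at a mean CPM of at least 2, where 48 were left to test, and to 29 (empty vector) and 25 (HOTAIR) at a log2 fold change of at least 1.5, where all genes gave 2418 and 2357. With each library left out in turn the counts were 49 to 55 and 46 to 52 for the homeobox genes, and 6044 to 6941 and 5722 to 6106 over all genes.

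Over all genes, the 3 calls with HOTAIR in MCF10A became 6 with a pseudocount of 0.5 or 1 CPM, 5 with limma-voom, and 1 with only the 4 libraries of the comparison or a log2 fold change of 1.5. The 12 in DCIS.COM became 6 without the variance trend, 20 with the replicate block, 0 with only the 4 libraries and 1 at a log2 fold change of 1.5. The 6 of the difference between the lines became 10 with a pseudocount of 1 CPM and 0 without the trend or with the replicate block. With a library left out the counts over all genes were 1 to 51, 1 to 1403 and 0 to 4414, and those of homeobox genes 0 to 0, 0 to 6 and 0 to 11. The causes were not tested.

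Directions turned for small changes. The NKX2-5 difference between the lines was 0.26 and became -0.36 and -0.43 with pseudocounts of 0.5 and 1 CPM, and -0.57 to 1.09 with a library left out. Over the libraries left out, the log2 change with HOTAIR of POU2F1 in MCF10A ran from -0.24 to 0.13 (0.076 among them), of HOXC11 in MCF10A from -0.087 to 0.26, of HOXC6 in DCIS.COM from -0.20 to 0.051 and of HOXC11 in DCIS.COM from -0.39 to 0.14. That of HOXC9 between the lines with the empty vector ran from -0.28 to 0.071. Libraries with the same replicate number did not deviate together (correlations -0.029 to 0.036 over 12222 genes), and with the number as a block, the counts of homeobox genes stayed at 0, 0, 51, 51 and 0.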
